A study of Rattus norvegicus with 61 samples.

Results

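Acetylation of lysine 27 on histone H3 (H3K27Ac) was compared between islets of intrauterine growth restricted (IUGR) and control rats at 10 weeks of age. All genes in the deposited table were taken, with the columns that give the H3K27Ac region at 10 weeks, its distance from the transcription start site (TSS) and its log2 fold change. Of the 17411 genes listed, 4355 (25.0%) had a region called differential at most 5 kb from the TSS. The mean over these regions was higher in IUGR islets for 831 genes (4.77% of all genes listed) and lower for 3524 (20.2%).

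The series holds 61 libraries, 34 from ChIP and 27 from input chromatin, and the comparison rests on 3 H3K27Ac libraries from IUGR islets and 3 from control islets. IUGR was induced by bilateral uterine artery ligation late in the pregnancy of Sprague Dawley rats, and control dams had sham surgery. Litters were culled to equal size after birth, and both groups received the same chow. Each 10-wk sample pooled pancreata of male littermates, so the values describe males only. Isolated islets hold beta, alpha and other endocrine cells together with vessels, nerves and some exocrine cells, and fewer cells of a type cannot be told apart from less of the mark per cell. The table gives log2 fold changes of IUGR over control and no value for any library. Spread between replicates, sequencing depth and p-values therefore cannot be given for the values below. It lists regions that the authors called differential and gives no levels, so whether islet marker genes carried the mark could not be checked against it. A region is called higher or lower here by the sign of its listed log2 fold change.

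H3K27Ac is laid down by the acetyltransferases p300 and CBP and removed by histone deacetylases. It marks active promoters, where it sits on the nucleosomes that flank the start site, and active enhancers, which can lie far from the gene. In islets, promoters with the mark serve secretory, metabolic and housekeeping genes, and many enhancers with the mark are bound by the transcription factors that define beta cells.

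Most regions near start sites were lower in IUGR islets. The table lists 10689 different H3K27Ac regions, with log2 fold changes from -2.22 to 2.42. Counted once at the nearest TSS, 4281 lay within 5 kb, of which 784 were higher and 3497 lower. Regions over the TSS numbered 516 losses and 98 gains. Away from the TSS, in steps of 250 bp, the step with the most losses was 250 to 500 bp downstream (408), and gains numbered 7 to 27 in every step. Beyond 5 kb the counts turned, with 3741 regions higher and 2667 lower. The share higher was 16.0% of 614 regions over the TSS, 7.08% of 2132 up to 1 kb, 34.9% of 1535 at 1 to 5 kb, 56.6% of 2173 at 5 to 20 kb, 58.0% of 2857 at 20 to 100 kb and 61.8% of 1378 beyond 100 kb. These shares depend on the unit, since counting a distant region once for each gene that lists it gave 45.6%, 45.2% and 47.7% in the last 3 classes. They also depend on size, since among regions with a log2 change of at least 1 the share higher was 48.4% over the TSS and 10.1% up to 1 kb. Counted by side, so that a region between 2 genes can count on either, 5.88% of 1055 regions up to 1 kb upstream and 7.35% of 1251 downstream were higher.

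**Figure D1:**
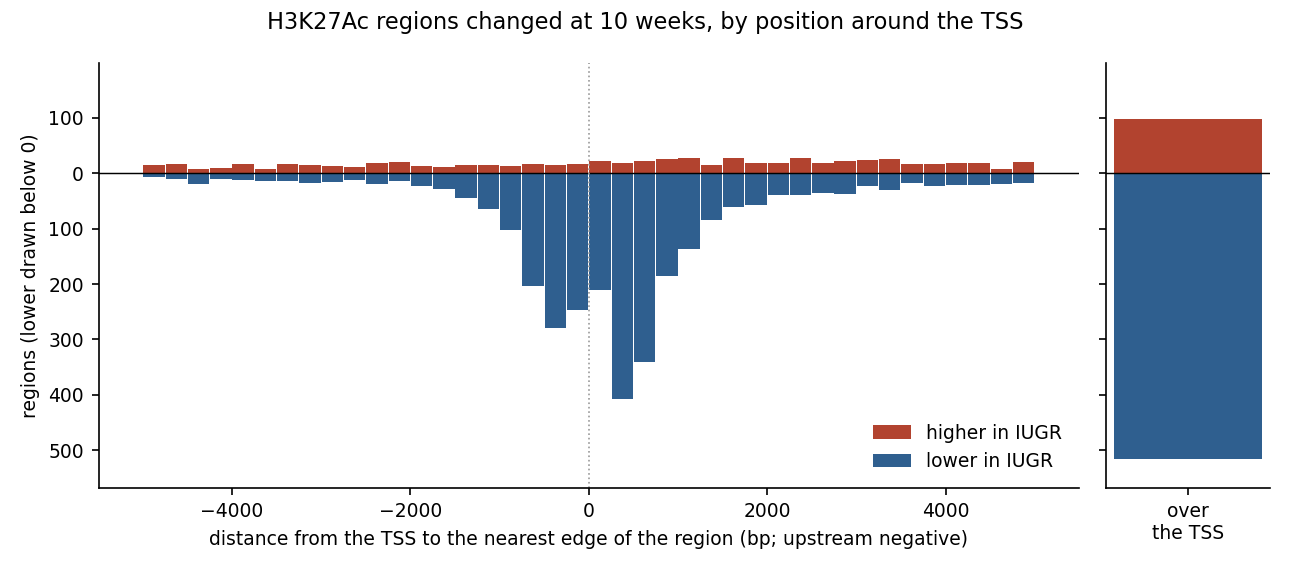
Number of differential H3K27Ac regions within 5 kb of a TSS by distance to the nearest edge of the region in bp, upstream negative, with regions that cover the TSS at the right. Bars above 0 count regions higher in IUGR islets and bars below 0 regions lower, which gather within 1 kb on either side of the TSS while the higher ones number at most 27 in any step outside the TSS.

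**Figure D2:**
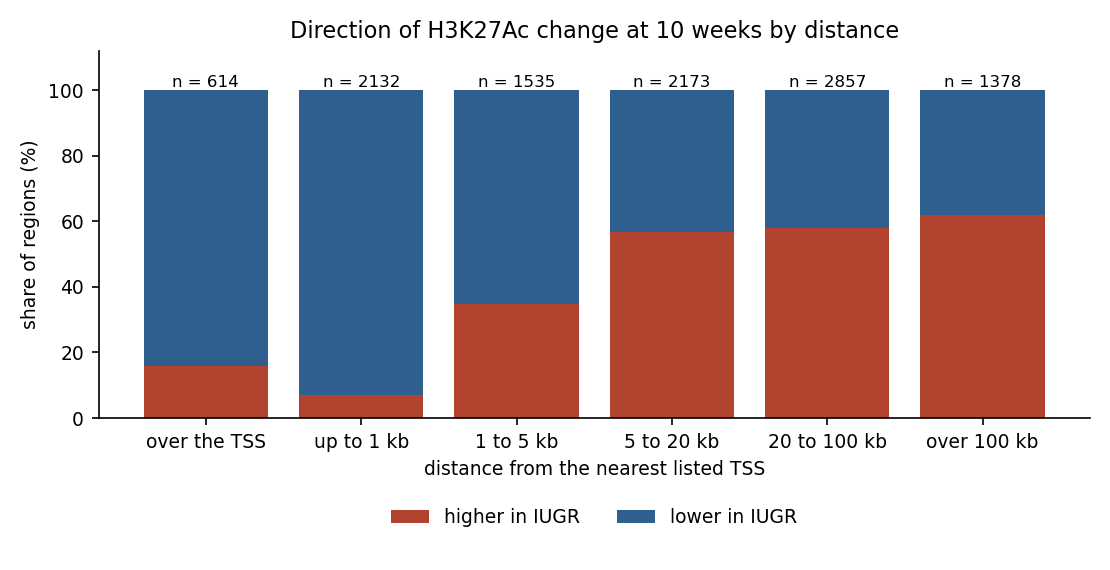
Share of differential H3K27Ac regions in percent that were higher or lower in IUGR islets in 6 classes of distance from the nearest TSS, each region counted once, with the number of regions above each bar. The share higher is 34.9% at 1 to 5 kb and between 56.6% and 61.8% in the 3 classes beyond 5 kb.

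Sizes were bounded by what the authors listed, which began at a larger change for gains. Of all regions, 5% of the losses were smaller than 0.542 in size and 5% of the gains smaller than 0.72. Among genes lower in IUGR islets the median log2 fold change was -0.82, and the quartiles were -0.98 and -0.69. Among genes higher in IUGR islets the median was 0.95, with quartiles of 0.83 and 1.09. The smallest loss listed among all regions was -0.27 and the smallest gain 0.34, so regions with less change are not in the table. Where an end could be derived, for 6950 regions, the median width was 1100 bp.

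Some genes had a differential region on either side of the TSS, while most had 1 region. Of the 4355 genes, 575 had 2 regions within 5 kb, and both regions had the same sign in 512 of them, lower in 460 and higher in 52. The other 63 genes had 1 region of each sign, and their means ran from -0.25 to 0.49. They are counted below by the sign of that mean. Among them are Rps6kb2 (-0.02), Mrps24 (-0.035), Mapk13 (-0.07), Usp48 (-0.125), Rpl26 (-0.16), Map3k9 (0.14) and Plxnb2 (0.165). At Eif3a, which encodes a subunit of translation initiation factor 3, the log2 fold change was -1.93 at 1217 bp downstream and -1.04 at 1185 bp upstream. Both flanks were lower at Kdm5a, a demethylase of H3K4 (-1.17 and -1.73), Wnk1, a kinase of ion transport (-1.43 and -1.42), and Nfe2l2, which encodes the regulator of the antioxidant response NRF2 (-0.97 and -1.74). Cp, Ctdspl2, Rps26, Atp8b2 and Gabpb1 were also among the genes with the largest losses on both flanks. On the side of the gains, Amz1 (0.89 and 1.59), Slc27a3 (0.75 and 1.64), Pmepa1 (1.38 and 0.96) and Wfdc1 (1.12 and 1.15) were higher on both flanks.

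The most negative means belonged to genes of several functions. Kmt2e, which encodes a chromatin protein of the trithorax group, had the most negative mean at -2.14, from a region 4324 bp from its TSS. Kif5b, a heavy chain of the kinesin motor that carries insulin granules along microtubules, stood at -2.08 with its region 455 bp from the TSS. Nek1, a kinase of cilia and DNA repair, stood at -2.01 with its region at 121 bp. Pairs of neighbouring genes shared some of the deepest losses. Serp1, which protects membrane proteins during stress of the endoplasmic reticulum (ER), and Eif2a, a translation initiation factor, have start sites close together on chromosome 2, at 148722262 and 148722431 of rn6. They share the region chr2:148719401-148721300 with a log2 fold change of -2.0. Vps37a, of the endosomal sorting machinery, and Cnot7, a deadenylase, share another at -2.0. The list went on with Ccdc77 (-1.83), Rlim, a ubiquitin ligase gene on the X chromosome (-1.81), Vta1 of endosomal sorting (-1.76), Aasdhppt (-1.74), Bbs4 of cilia (-1.72) and Bmt2 (-1.70). Hmgcs1, the enzyme that makes HMG-CoA for cholesterol synthesis, stood at -1.65. Pdia3, a disulfide isomerase of the ER, shared a region with Catsper2 at -1.62, Enkur and Thnsl1 shared one at -1.64, and Epc2, of an acetyltransferase complex, stood at -1.62.

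The most positive means also belonged to genes of several functions. Idi2, an isopentenyl diphosphate isomerase best known from muscle, had the most positive mean at 1.83, from a region over its TSS. Dspp (1.78) and Dmp1 (1.55) encode matrix proteins of dentin and bone and lie side by side on chromosome 14. Phc2, a Polycomb protein, stood at 1.76 with its region 3056 bp from the TSS. Dmrtb1, a testis transcription factor, stood at 1.64, and Krt34, a hair keratin, at 1.58. Wbscr22 and Dnajc30 share a region at 1.61, Pdcd2l stood at 1.57, and 3 olfactory receptor genes listed at a single TSS, Olr1090, Olr1092 and Olr1093, stood at 1.54. Gp1bb, a platelet glycoprotein, Ptk6, a kinase of epithelia, and Rxfp3, a relaxin family receptor, all stood at 1.53. Nog, the BMP antagonist noggin, stood at 1.5 with its region over the TSS. On the side of the losses, the 5 deepest regions over a listed TSS were at Gpbp1 (-1.61), Hnrnpk (-1.38), the let-7a and let-7f microRNA genes on chromosome 17 (-1.38), Paip2 (-1.38) and Chd1 (-1.37), a remodeller of active chromatin. The TSS of a microRNA gene is its listed start, which need not be where its transcript begins.

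Promoters are shown for the 2 most gained and the 2 most lost genes that have a promoter in RefSeq and a region at or within 250 bp of the TSS, and for Xbp1 and Sel1l, which act in the ER. Sequences come from RefSeq (GRCr8) and run from 250 bases before to 50 bases after the annotated start, on the strand of the gene. They lie at chr17:66026284-66026583 (minus strand) for Idi2, chr20:2659687-2659986 (plus strand) for RT1-O1, chr16:34128527-34128826 (minus strand) for Nek1, chr2:44824232-44824531 (minus strand) for Gpbp1, chr14:84604373-84604672 (plus strand) for Xbp1 and chr6:116510312-116510611 (minus strand) for Sel1l, all in GRCr8, whereas the regions of the table are in rn6. Capitals mark matches on either strand to the 8 motifs described below.
Idi2: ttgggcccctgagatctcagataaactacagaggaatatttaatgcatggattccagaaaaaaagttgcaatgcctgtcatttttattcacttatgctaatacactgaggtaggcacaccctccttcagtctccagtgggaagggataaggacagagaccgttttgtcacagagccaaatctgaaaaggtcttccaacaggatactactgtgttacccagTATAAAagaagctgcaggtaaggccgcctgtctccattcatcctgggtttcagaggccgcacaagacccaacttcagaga
RT1-O1: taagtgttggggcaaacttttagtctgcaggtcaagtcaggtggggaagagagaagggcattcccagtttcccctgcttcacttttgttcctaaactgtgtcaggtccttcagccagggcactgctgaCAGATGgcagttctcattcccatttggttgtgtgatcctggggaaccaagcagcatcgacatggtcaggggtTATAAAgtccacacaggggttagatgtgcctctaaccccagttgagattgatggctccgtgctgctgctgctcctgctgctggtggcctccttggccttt
Nek1: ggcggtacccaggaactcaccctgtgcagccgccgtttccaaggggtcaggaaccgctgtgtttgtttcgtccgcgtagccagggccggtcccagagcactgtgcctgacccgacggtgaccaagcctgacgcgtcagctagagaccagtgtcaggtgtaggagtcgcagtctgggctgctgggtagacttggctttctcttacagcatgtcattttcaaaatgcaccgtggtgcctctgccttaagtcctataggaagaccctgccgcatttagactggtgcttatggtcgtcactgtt
Gpbp1: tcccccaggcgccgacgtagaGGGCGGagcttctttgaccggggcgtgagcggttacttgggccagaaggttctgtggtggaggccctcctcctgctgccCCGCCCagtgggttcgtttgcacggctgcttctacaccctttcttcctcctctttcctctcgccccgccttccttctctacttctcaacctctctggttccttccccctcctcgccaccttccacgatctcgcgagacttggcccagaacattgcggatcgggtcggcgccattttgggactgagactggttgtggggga
Xbp1: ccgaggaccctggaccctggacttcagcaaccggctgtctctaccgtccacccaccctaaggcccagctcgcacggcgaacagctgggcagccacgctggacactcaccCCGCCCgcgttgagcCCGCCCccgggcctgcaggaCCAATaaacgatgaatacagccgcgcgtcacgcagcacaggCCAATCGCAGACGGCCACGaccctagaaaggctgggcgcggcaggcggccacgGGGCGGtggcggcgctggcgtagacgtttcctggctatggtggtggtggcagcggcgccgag
Sel1l: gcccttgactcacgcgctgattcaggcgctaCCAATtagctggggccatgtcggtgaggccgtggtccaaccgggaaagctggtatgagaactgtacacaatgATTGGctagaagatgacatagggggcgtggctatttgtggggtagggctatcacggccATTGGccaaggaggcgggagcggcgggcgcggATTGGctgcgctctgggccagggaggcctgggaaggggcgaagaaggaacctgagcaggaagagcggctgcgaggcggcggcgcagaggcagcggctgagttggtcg

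The gained promoters shown had fewer CpG than the lost ones, and the median ratio over all matched promoters was 0.654. The ratio of observed to expected CpG was 0.195 in the 300 bases of Idi2 (log2 fold change 1.83) and 0.0967 in RT1-O1 (1.56), and each holds a TATA box, which starts 30 bases before the start in Idi2 and 50 before it in RT1-O1. The ratio was 0.649 in Nek1 (-2.01), 0.705 in Gpbp1 (-1.61), 0.89 in Xbp1 (-0.715) and 0.806 in Sel1l (-0.95). Nek1 holds no match to any of the motifs, Gpbp1 holds 2 GC boxes, Sel1l 4 CCAAT boxes, and Xbp1 2 CCAAT boxes and 3 GC boxes. The CCAAT box of Xbp1 nearest to the start, at 65 bases before it, is part of an ER stress response element (ERSE), taken as CCAAT, any 9 bases, then CCACG.

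Promoters were matched for 13503 genes (77.6%), the first entry where RefSeq has several. A match was found for 83.5% of the genes with a lower mean and a region over the TSS or within 1 kb, and for 71.6% of those with a higher mean. Since the last share and that of all genes are under 80%, a comparison of these groups is void, and the shares that follow only describe the promoters matched. Of the 2082 lower promoters, 76.8% had a CpG ratio over 0.6 and a GC content over 50%. The share was 34.7% of the 202 higher promoters and 51.8% of all matched promoters. The GC box (GGGCGG) was in 65.2% of these lower promoters, 44.6% of the higher and 49.7% of all. The TATA box (TATAAA) was in 6.20%, 8.91% and 11.9%, the E-box core bound by NeuroD1 (CAGATG) in 9.80%, 15.8% and 13.3%, and the E-box CACGTG in 10.6%, 8.91% and 7.84%. The CCAAT box was in 40.0%, 30.2% and 37.8%, the cAMP response element (TGACGTCA) in 4.13%, 3.96% and 2.57%, and the forkhead motif (TGTTTAC) in 2.74%, 3.96% and 2.86%. The ERSE was in 7 lower promoters, in none of the 202 higher and in 16 of all 13503. Matches describe the letters in these windows only.

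Genes of protein folding and stress in the ER were lower wherever they had a region. The shares of all genes, given beside each group, count genes rarely near a region, such as 1195 olfactory receptor genes (1.09%). Of 51 genes of the unfolded protein response (UPR) and ER folding, 36 had a region within 5 kb (70.6%, against 25.0% of all genes), and all 36 were lower in IUGR islets, with a median of -0.825, near the -0.82 of all lower genes. The 3 sensors of the UPR were among them, Atf6 at -0.96, Ern1, which encodes IRE1, at -0.95, and Eif2ak3, which encodes PERK, at -0.68. So were the transcription factors downstream of them, Atf4 (-0.85), and Xbp1 from 2 regions (-0.715). Of the chaperones and folding enzymes, Pdia3 aside, Pdia4 stood at -1.33, Dnajc10 at -1.14, and Hspa5, the chaperone BiP, at -0.85. Sel1l, of ER-associated degradation, stood at -0.95. The smallest losses were at Edem1 (-0.58) and Bhlha15 (-0.48). Of 21 genes of the COPI and COPII vesicle coats, 11 were lower (52.4%, against 20.2% of all genes) and none higher. The lowest were Sec23b (-1.125) and Sec24b (-1.11). All of the lower genes but Copz2 (-0.48), of COPI, belong to COPII, the coat of vesicles that leave the ER.

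Autophagy, by which beta cells clear damaged organelles, gave 23 lower and no higher of 41 genes (56.1% lower, against 20.2% of all genes), with a median of -0.86. The lowest were Tax1bp1 (-1.195), a cargo receptor, and Rb1cc1 (-1.19), a subunit of the starting kinase complex, and the smallest losses were at Sqstm1 (-0.65), the receptor p62, and Atg5 (-0.56). Of 17 peroxins, which build peroxisomes, 8 were lower (47.1%) and none higher, from Pex2 (-1.22) to Pex7 (-0.08, from 2 regions of opposite sign). Lower members were also all that was found among 46 ubiquitin-specific peptidases (18 genes, 39.1%), 15 genes of polyamine metabolism (8 genes, 53.3%, Sat1 at -0.98) and 29 genes of PPAR signalling (9 genes, 31.0%, Hadha at -1.37).

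Several families of translation and RNA binding had large shares of members lower. Large shares were not limited to them. The share lower was 40.0% for ubiquitin-conjugating enzymes, 35.5% for Rab small GTPases, 20.3% for zinc finger genes and 14.9% for solute carriers. Of 84 cytosolic ribosomal protein genes, 57 were lower (67.9%, against 20.2% of all genes) and 1 higher, with a median of -0.835. The lowest were Rpl41 (-1.36) and Rps26 (-1.34), and the highest were Rpl26 (-0.16) and Rplp0 (1.06, from a region 4605 bp from its TSS). Of 18 heterogeneous nuclear ribonucleoproteins, which package and process mRNA, 13 were lower (72.2%) and none higher, with a median of -1.02 (Hnrnpk -1.38, Hnrnpc -1.29). Of 52 genes grouped by symbol with the translation initiation factors, 30 were lower (57.7%) and none higher. This group also counts regulators of these factors, such as Eif2ak3 (PERK) and Eif4ebp3. Of 33 tRNA synthetases 18 were lower (54.5%) and none higher (Eprs and Sars -1.13, Vars -0.55). Shares were smaller for spliceosome and SR proteins (16 of 43 lower, 37.2%, and 1 higher), proteasome subunits (15 of 48, 31.2%, and 1 higher) and mitochondrial ribosomal proteins (21 of 71, 29.6%, and 2 higher). The higher proteasome gene was Psmb9 (1.20), a subunit of the immunoproteasome that lies among the MHC genes of chromosome 20. Copies of ribosomal protein genes elsewhere in the genome can share reads with them.

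Mitochondrial groups had larger shares of members lower than the 20.2% of all genes, and many of their members had no region. Of 25 genes of mitochondrial biogenesis and dynamics 12 were lower (48.0%), among them Gabpb1 (-1.335, a subunit of the GA-binding protein) and Opa1 (-1.17, fusion of the inner membrane). The 2 higher were Tfam (1.1), the factor that packages and transcribes mitochondrial DNA, from a region 1757 bp from its TSS, and Nrf1 (0.12), whose 2 regions had opposite signs. Complex I subunits and assembly factors gave 14 lower (33.3%) and 1 higher of 42, from Ndufa2 (-1.22) to Ndufa4l2 (1.20). Complexes II to IV gave 11 lower (28.9%) and 1 higher of 38, and the ATP synthase 7 lower (36.8%) and none higher of 19. Among 19 mitochondrial enzymes of amino acid and sulphur metabolism 11 were lower (57.9%, Aldh18a1 -0.92) and 1 was higher. In sterol and isoprenoid synthesis 13 of 27 genes were lower (48.1%), with Hmgcs1 (-1.65) and Idi1 (-1.31) the lowest, and Idi2 alone was higher.

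**Figure D3:**
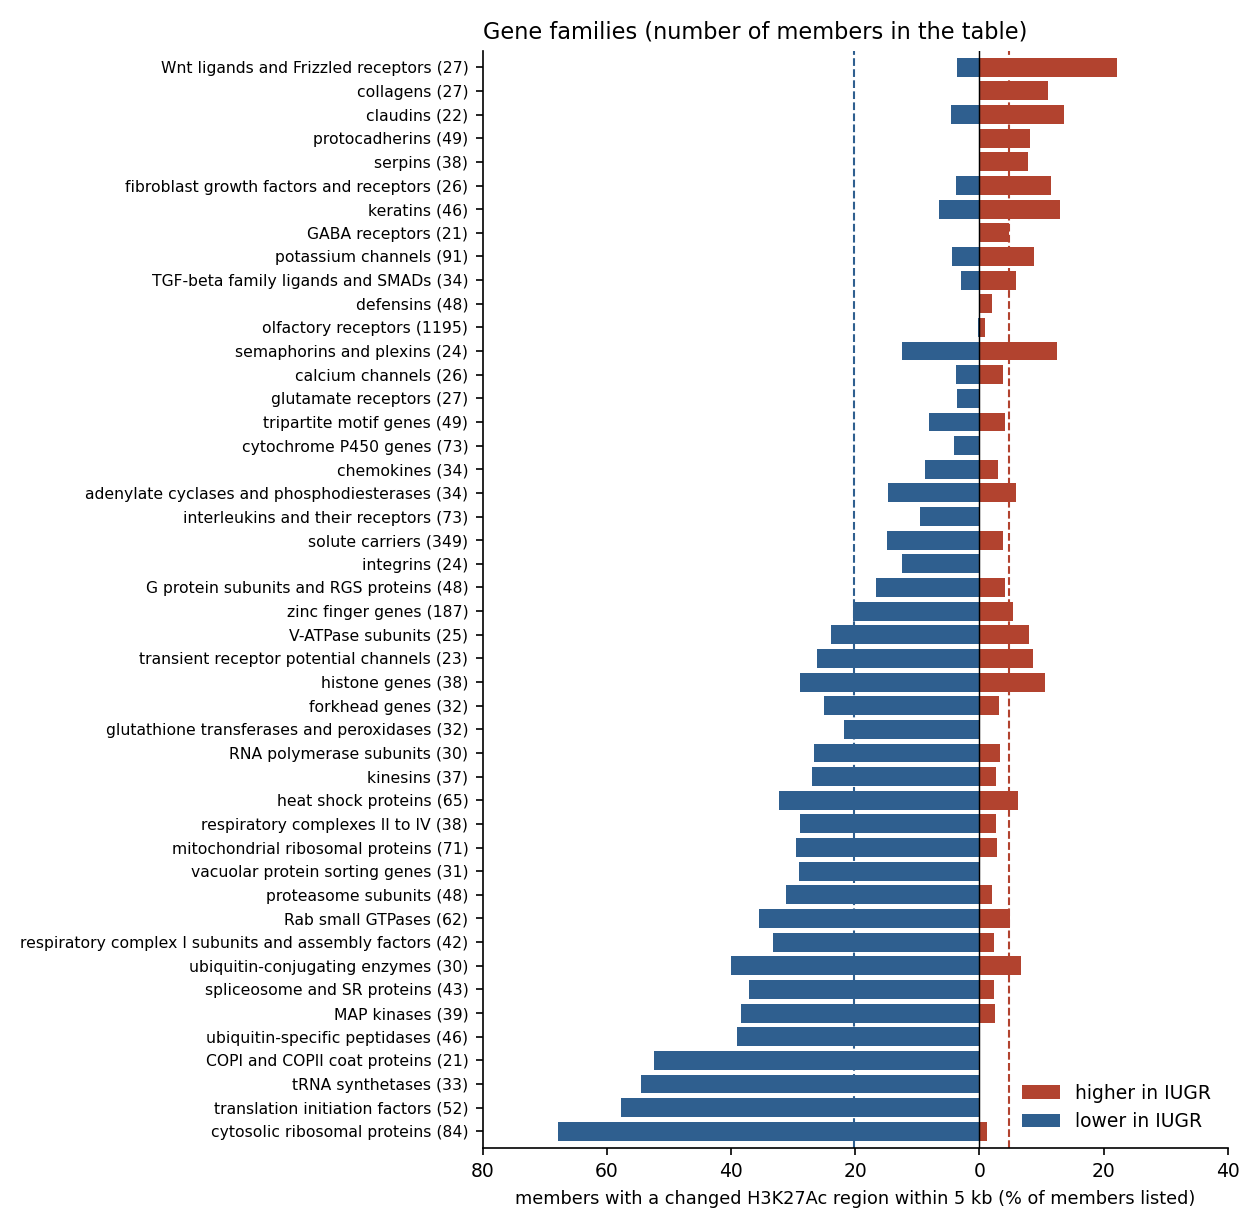
Members of each gene family whose TSS has a differential H3K27Ac region at most 5 kb away, in percent of the members listed in the table, with bars to the right for a higher mean in IUGR islets and to the left for a lower one, and the number of members in brackets. Dashed lines mark the shares over all genes (4.77% higher and 20.2% lower), and families with at least 20 members and a region are shown, from cytosolic ribosomal proteins at the bottom to Wnt ligands and receptors at the top.

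Of 35 beta cell transcription factors, 7 were lower and 1 higher, so 22.9% had a region, against 25.0% of all genes, the lowest being Ldb1 (-0.72), a cofactor of LIM factors, and Rfx3 (-0.69). Lhx1 was higher at 1.36, from a region 3493 bp from its TSS. Of 25 hormones and granule proteins 4 were lower (16.0%, where 25.0% of all genes had a region and 20.2% were lower), Pcsk1n (-1.03), Nucb2 (-0.93), Resp18 (-0.86) and Ptprn (-0.69), and none higher. Exocytosis gave 10 lower (23.3%, near that of all genes) and none higher of 43, among them Snap23 and Stxbp3 (-0.91), Unc13a (-0.86) and Vamp2 (-0.82).

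Genes of glucose sensing and stimulus coupling went both ways, with 10 lower and 5 higher of 43. The share lower, 23.3%, was near the 20.2% of all genes, and the share higher was 11.6%, against 4.77%. With regions within 1 kb, none of the genes was higher. The gene of the incretin receptor Gipr was lowest at -1.21 with a region 123 bp from its TSS, followed by Itpr1 (-0.93), a calcium release channel of the ER. Abcc8, which encodes the SUR1 subunit of the ATP-sensitive potassium channel, stood at -0.64. The highest were Itpr3 (1.09), another ER calcium release channel, and Trpm5 (0.96), a cation channel. Gcgr, the glucagon receptor, stood at 0.81 and Atp2a3, the calcium pump SERCA3, at 0.66. The regions of these 4 genes lay between 1130 and 3097 bp from the TSS.

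Genes that write, erase and read histone marks were more often lower than higher. Of 31 genes of histone acetylation 13 were lower (41.9%, against 20.2% of all genes), the lowest being Kat8 (-1.02), an acetyltransferase, and Brd2 (-1.0), a bromodomain reader. The deacetylases Sirt6 (1.20) and Hdac10 (1.05) were higher. Of 29 genes of histone methylation 11 were lower (37.9%) and none higher, from Kmt2e (-2.14) and Kdm5a (-1.45) to Kdm4b (-0.61) and Dot1l (-0.52). Of 34 microtubule motors 10 were lower (29.4%) and 1 higher (Klc1, 0.87), and of 28 immediate early genes 12 were lower (42.9%, Klf2 at -0.99) and none higher. Of 44 MAPK genes 16 were lower (36.4%, Map3k1 at -1.06) and 1 higher (Dusp16, 1.02). Insulin and mTOR genes were near all genes, with 7 of 31 lower (22.6%, Mlst8 at -1.05) and 1 higher (Irs1, 0.68).

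Of 43 genes of cytokine and inflammatory signalling 14 were lower (32.6%, against 20.2% of all genes) and 2 higher (4.65%, against 4.77%). With regions within 1 kb none was higher. The lowest were Stat3 (-1.045) and Irf1 (-1.04), an interferon response factor, and Tnf stood at -0.95. Among the higher was Stat2 (0.83), a signal transducer of interferon, with a region 2769 bp from the TSS.

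**Figure D4:**
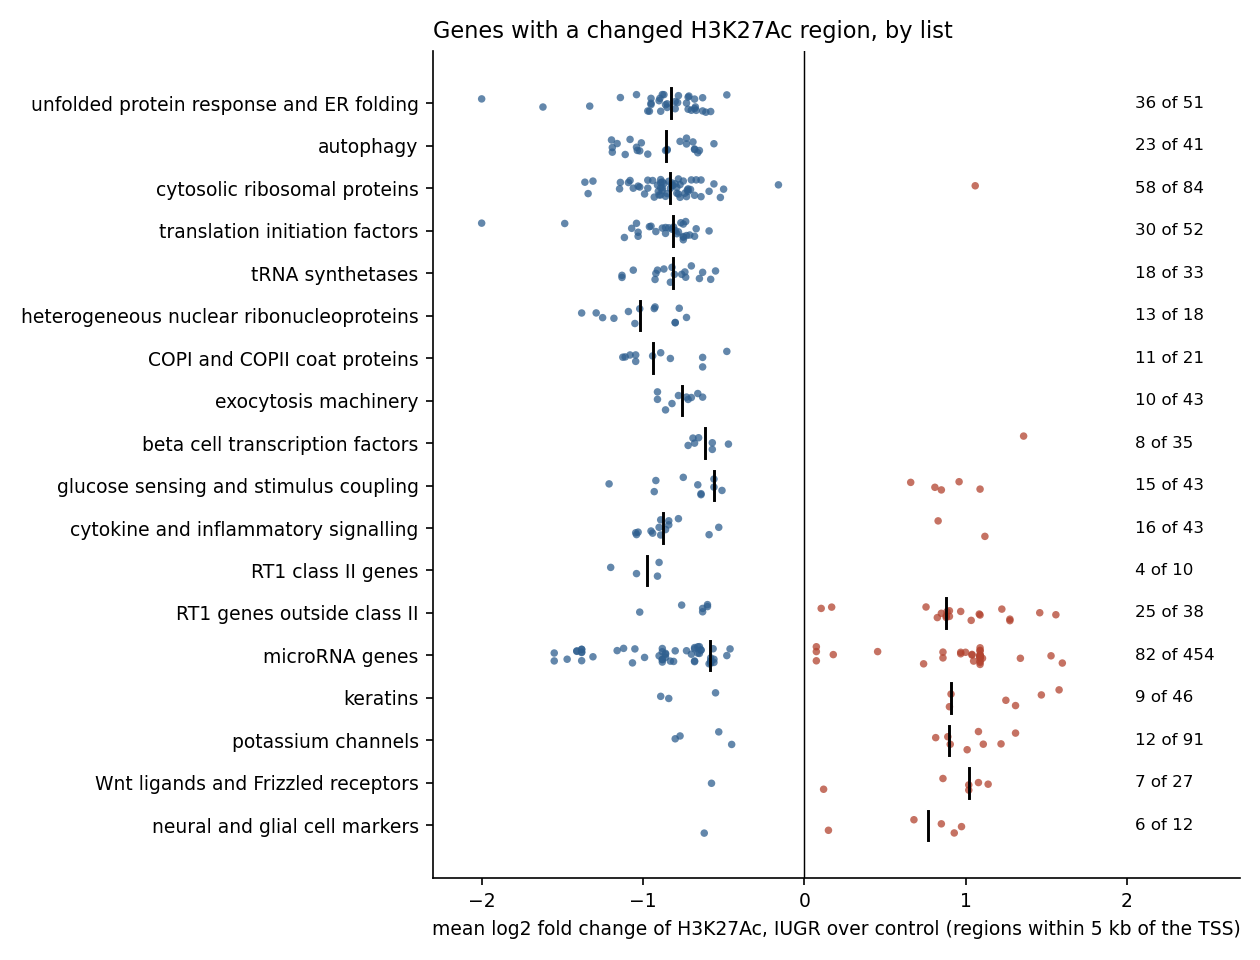
Mean log2 fold change of H3K27Ac, IUGR over control, of each gene with such a region at most 5 kb from the TSS, by list, with the median as a black line and the number of such genes of those in the table at the right. UPR, autophagy, ribosomal and other translation genes lie below 0 except Rplp0, and RT1 genes outside class II, keratins, potassium channels and Wnt genes lie mostly above it.

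The RT1 genes, the rat MHC on chromosome 20, split by class. They were singled out after their values were seen. Class I molecules present peptides on most cells, and class II molecules on antigen-presenting cells. Of 38 RT1 genes outside class II, 19 were higher (against 4.77% of all genes) and 6 lower (15.8%, against 20.2%), from 33 regions, with a median of 0.88. RT1-O1 stood at 1.56, from a region that it shares with RT1-S2, which stood at 1.46 with another at 1.36, RT1-N1 and RT1-N2 shared regions at 1.18 and 1.37, and RT1-T24-1 was lowest at -1.02. Between RT1-CE15 and RT1-S3, over 200 kb, 7 of them in a row were higher, counting genes with a region. Of 10 class II genes 4 had a region (40.0%, against 25.0% of all genes) and all 4 were lower, RT1-Ba at -1.20, RT1-Bb at -1.04, RT1-Db1 at -0.91 and RT1-Ha at -0.90. For H3K4me3 at 10 weeks all 10 class II genes were lower (against 31.3% of all genes), with a median of -1.805. Of 15 immune cell markers, 1 had an H3K27Ac region (Cd68, -0.73), and for H3K4me3 4 of the 15 were lower and 2 higher, where 31.3% of all genes were lower and 26.0% higher. The part of immune cells in these values was not tested. RT1 genes are close copies of each other, and reads that fit several copies were removed by the authors, so values of single RT1 genes are uncertain.

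MicroRNA genes, also singled out after their values were seen, were divided between loss and gain. A microRNA binds its targets through bases 2 to 8, the seed. Neighbouring microRNA genes have separate listed starts, 16417852 of rn6 for Mirlet7a1 and 16418220 for Mirlet7f-1. A region over such a start need not lie at a promoter. Of 454 microRNA genes, 82 had a region within 5 kb, from 56 different regions, which is 18.1% against 25.0% of all genes. Of the 82 genes, 50 were lower (11.0% of the 454, against 20.2% of all genes) and 32 higher (7.05%, against 4.77%), and 71 were matched to RefSeq mature sequences. The sequences below carry the lost clusters and the gained cluster of chromosome 6, with the seed in capitals. The first group, with the let-7 seed, and the pairs miR-132 and miR-212 and miR-195 and miR-497, which share their seeds within a pair, come from genes that were lower.
let-7a-5p: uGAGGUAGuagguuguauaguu
let-7d-5p: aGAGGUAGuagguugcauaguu
let-7i-5p: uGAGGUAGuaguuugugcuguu
let-7c-5p: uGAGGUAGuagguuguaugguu
miR-132-3p: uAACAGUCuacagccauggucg
miR-212-3p: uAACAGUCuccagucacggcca
miR-195-5p: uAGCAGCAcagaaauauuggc
miR-497-5p: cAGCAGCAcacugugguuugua
miR-21-5p: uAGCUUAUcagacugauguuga
miR-133a-3p: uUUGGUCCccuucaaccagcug
The next come from genes on chromosome 6 that were higher, of which miR-299a and miR-299b share a seed.
miR-370-3p: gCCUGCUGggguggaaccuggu
miR-379-5p: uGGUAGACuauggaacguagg
miR-411-5p: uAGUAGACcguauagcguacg
miR-494-3p: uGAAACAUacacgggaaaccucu
miR-495: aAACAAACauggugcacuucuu
miR-543-3p: aAACAUUCgcggugcacuucu
miR-299a-3p: uAUGUGGGacgguaaaccgcu
miR-299b-3p: uAUGUGGGacgguaaac

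The 4 matched genes with the let-7 seed were lower. Mirlet7a1 and Mirlet7d share the region chr17:16417301-16418400 in rn6, which covers the listed start of Mirlet7a1, at -1.38. Mirlet7i stood at -0.86 and Mirlet7c-1 at -0.64. Let-7 restrains growth and marks differentiated cells. Mir21 (-0.90) and Mir22 (-0.86) had regions over their listed starts. Mir132 and Mir212 shared a region at -0.65, Mir195 and Mir497 another at -0.66, and Mir30b and Mir30d another at -1.41. Mir133a, known from muscle, had 2 regions, at -2.22 and -0.88, of which the first is the deepest loss in the table. The 200 family was split, with Mir141 and Mir200c at -0.58 and Mir200a and Mir200b between a region at 0.74 and another at -0.59. Mir429 was higher, with the region at 0.74 over its listed start.

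The gained cluster on chromosome 6 lies in the imprinted Dlk1-Dio3 domain, whose microRNAs are made from the maternal chromosome. It was the longest run of genes higher in IUGR islets, taking genes with a region in order, with 15 genes over 128 kb, but it rests on 2 regions. The first, chr6:133738901-133739900, ends 16 bp from Mir370 and stood at 1.60. The second, chr6:133861001-133863300, stood at 1.09 and is within 5 kb of 14 genes, among them Mir379, Mir411, Mir299, Mir494, Mir543 and Mir495. It covers the listed starts of Mir323, Mir329 and Mir758. Elsewhere Mir330 (1.53), Mir129-1 (1.34) and Mir9-1 (0.86) were higher.

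Some families had more members higher than lower, with few members near a region. Of 27 Wnt ligands and Frizzled receptors 6 were higher (22.2%, against 4.77% of all genes) and 1 lower. Wnt8a stood at 1.14, Fzd1 at 1.08, Wnt1 and Wnt16 at 1.02 and Fzd4 at -0.575. Fzd5, counted as higher, stood at 0.12 from 2 regions of opposite sign. Of 91 potassium channel genes 8 were higher (8.79%) and 4 lower, with Kcnj14 the highest (1.31) and the lowest Kcnj13 (-0.80) and Kcnj2 (-0.77). Of 46 keratins named Krt with a number alone, which leaves out Krt33a, Krt33b and Ka11, 6 were higher and 3 lower. Krt34 (1.58), of hair, and Krt17 (1.47), of skin appendages, were the highest, and the lower ones were keratins of simple epithelia, Krt20 (-0.89), Krt18 (-0.84) and Krt8 (-0.55). Collagens gave 3 higher of 27 (11.1%), protocadherins 4 of 49 (8.16%) and serpins 3 of 38 (7.89%), with none lower, and claudins 3 higher (13.6%) and 1 lower of 22. Fibroblast growth factors and receptors gave 3 higher (11.5%) and 1 lower of 26, cadherins 2 (10.5%) and none of 19, and laminins 2 (25.0%) and 1 of 8. The share higher was near the 4.77% of all genes for TGF-beta ligands and SMADs (2 of 34, 5.88%, and 1 lower). It was also near it for GABA receptors (1 of 21, 4.76%, and none lower). Further families had as many or more members lower, with shares to be read against the 20.2% of all genes. MAP kinases gave 15 lower (38.5%) and 1 higher of 39, and transient receptor potential channels 6 (26.1%) and 2 of 23. The higher MAP kinase, Map3k9 (0.14), had 2 regions of opposite sign. Shares lower were under that of all genes for G protein subunits and RGS proteins (8 of 48, 16.7%, and 2 higher) and cyclases and phosphodiesterases (5 of 34, 14.7%, and 2 higher). They were also under it for integrins (3 of 24, 12.5%), semaphorins and plexins (3 of 24, 12.5%, and 3 higher) and interleukins and their receptors (7 of 73, 9.59%). The integrins were counted by symbol, and the 3 lower include Itgb3bp (-1.36), a binding protein by its name. Of 1195 genes counted as olfactory receptors by their Olr symbols, 13 had a region (1.09%, against 25.0% of all genes), 11 higher and 2 lower. A symbol may stand for another kind of receptor, as at Olr1 (-0.87), among the lower. The Hox genes (28) and vomeronasal receptors (179) had no region. For H3K27me3 at 10 weeks, 18 of the 28 Hox genes had a region and all 18 were higher, where 12.4% of all genes were higher.

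Neural and glial markers were the markers of other cells with the most members higher. Of 12, 5 were higher (41.7%, against 4.77% of all genes) and 1 lower, with Th at 0.975, Gfap at 0.93, Prph at 0.85, Sox10 at 0.68, Mbp at 0.15 from 2 regions of opposite sign, and Tubb3 at -0.62. A region lay near 10.0% of acinar, 27.3% of ductal, 21.4% of endothelial and 15.4% of mesenchymal markers, against 25.0% of all genes. Acinar markers gave 1 higher (Cpa1, 0.90) and 1 lower (Bhlha15) of 20, ductal markers 1 higher (Sox9, 0.81) and 2 lower (Krt18 and Slc4a4, -0.84) of 11, endothelial markers 1 higher (Cdh5, 0.83) and 2 lower of 14, and mesenchymal markers 1 higher (Pdgfrb, 0.81) and 1 lower (Sparc, -0.72) of 13. Of 15 endocrine markers 1 had a region (6.67%), Abcc8. The part of a shift in cell types in the values above was not tested.

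The X chromosome had the lowest share of genes higher in IUGR islets. A region lay within 5 kb of 78 of its 587 genes (13.3%, against 25.4% on the autosomes), and 77 of the 78 were lower, with a median of -0.98. The share higher was 1.28%, against 11.2% to 30.4% on single autosomes, the highest being chromosomes 12 (30.4%) and 20 (30.1%). Among regions more than 20 kb from a TSS, 31 of 70 on the X were higher (44.3%), against 59.5% on the autosomes. The second longest run of gained genes was 8 of the keratin cluster on chromosome 10, from Krt23 to Krt17 and with Krt33a, Krt33b and Ka11 among them, over 756 kb and 5 regions. Shorter runs include 5 genes on chromosome 14 that end with Dmp1 and Dspp.

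Genes with more or less H3K27Ac were also looked up in 3 other comparisons of the table, H3K4me3 and H3K27me3 at 10 weeks and H3K27Ac at 2 weeks. H3K4me3 marks active promoters, and H3K27me3 marks genes silenced by Polycomb. The input libraries and the animals behind these comparisons may be shared, which the table does not show. For H3K4me3, 26.0% of all genes were higher and 31.3% lower. Of the 831 genes with higher H3K27Ac, 424 were higher in H3K4me3 and 178 lower, and of the 3524 with lower H3K27Ac, 884 were higher and 1984 lower. At Phc2 the H3K4me3 value was 2.77, at Dmp1 2.92 and at Dspp 1.74, whereas Xbp1 was higher in H3K4me3 (1.52) and lower in H3K27Ac.

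For H3K27me3, 12.4% of all genes were higher and 7.66% lower. Of the genes with higher H3K27Ac, 201 were higher in H3K27me3 and 129 lower, so 39.7% of them had a differential H3K27me3 region, whereas of those with lower H3K27Ac 7.52% did, 133 higher and 132 lower. Idi2 (1.4), Nog (1.33) and Lhx1 (1.54) were higher in both acetylation and H3K27me3. Tfam (-0.95), Trpm5 (-0.88) and Sirt6 (-0.62) were lower in H3K27me3 and higher in acetylation.

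For H3K27Ac at 2 weeks, 10.9% of all genes were higher and 15.3% lower. The 2-wk islets came from both sexes and the 10-wk islets from males, so age and sex cannot be told apart. Of the 3524 genes lower at 10 weeks, 557 were higher at 2 weeks and 1049 lower, and of the 831 genes higher at 10 weeks, 122 were higher and 133 lower. Of the 51 UPR and ER genes, 33 had a region at 2 weeks, 30 lower and 3 higher. Sel1l (-0.38), Hspa5 (-0.50) and Atf4 (-0.39) were lower at 2 weeks and Eif2ak3 (0.35) higher. Atp2a3 and Lhx1, higher at 10 weeks, were lower at 2 weeks (-0.58 and -0.63).

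**Figure D5:**
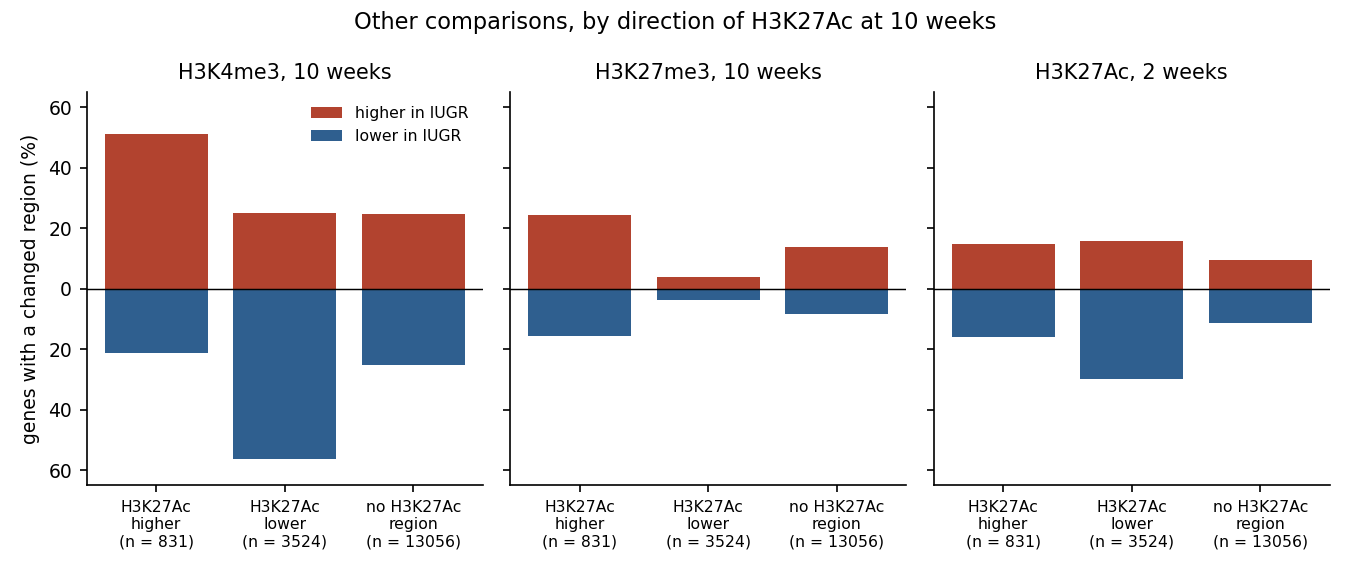
Share of genes in percent with a differential region of H3K4me3 or H3K27me3 at 10 weeks or of H3K27Ac at 2 weeks near the TSS (up to 5 kb), for genes with higher, lower or no differential H3K27Ac region at 10 weeks, with bars above 0 for a mean higher in IUGR islets and below 0 for a lower one. Of the genes with higher H3K27Ac 39.7% had an H3K27me3 region, against 7.52% of those with lower H3K27Ac.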

How the data were processed

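Islet chromatin was profiled by ChIP-Seq in 3 IUGR and 3 control H3K27Ac libraries at 10 weeks. According to the methods of the study, reads were trimmed with Trimmomatic, mapped to rn6 with STAR and filtered with SAMtools, enriched sites were called with MACS2, and differential regions with diffReps. The submitters' processing notes name Trimmomatic 0.32, Bowtie2, SAMtools 0.1.19 and MACS2 2.1.0. The scaling, window, test and cut-off of diffReps are not given in the sources used here. These choices decide which regions are listed and where the log2 scale has its 0. The authors deposited log2 fold changes of IUGR over control for differential regions nearest to each TSS, upstream and downstream, which are the authors' own comparison, with no counts or depth.

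The table was read with Python 3.11.15, pandas 2.3.3 and NumPy 2.4.6, intervals were computed with SciPy 1.17.1, and figures drawn with Matplotlib 3.10.9. The TSS and strand were derived from region starts and signed distances, and the strand equalled that of RefSeq for 94.8% of 13478 genes. Positions disagreed for 58 genes, for which none are printed. The value of a gene was the mean over regions within 5 kb, of which there are at most 2. No test was made, because the table has no replicates. The columns of 2 further comparisons were not used. The steps were tested on simulated data.

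The genes named are the 15 most positive and 15 most negative, the 10 largest in each direction with regions of the same sign on both sides, the 5 largest in each direction over a TSS, the ends of each list, and genes of the study's text or tables, of which some are not reported here. Other members of lists and families, such as Atf6, Ern1, Hspa5, Vamp2, Abcc8, Atp2a3 and most microRNA genes, were chosen after their values were seen. The members and lists were chosen with earlier results of these data known. A list of 19 genes from the study's own table of lasting H3K27Ac change, chosen on these libraries, was lower in all 19 and is no independent evidence. Alternatives changed the distance, the minimum change, the summary over regions and the gene that owns a region.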

Additional observations from a re-analysis of the deposited data

How the results depend on the processing

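With regions within 1 kb, 2776 genes had a region, 9.33% of them higher in IUGR islets, with a median log2 fold change of -0.79. With regions over the TSS only there were 636 genes, 16.5% higher, with a median of -0.66. With the nearest regions at any distance there were 17334 genes and 52.2% were higher, and the median turned to 0.03. Keeping regions with a log2 change of at least 1 gave 1266 genes, 29.8% higher, with a median of -1.05. The minimum also raised the share of regions higher to 48.4% over the TSS, 10.1% up to 1 kb, 47.6% at 1 to 5 kb, 78.6% at 5 to 20 kb, 75.4% at 20 to 100 kb and 76.8% beyond. Counting by gene and side gave 32.4%, 45.6%, 45.2% and 47.7% in the last 4 classes. A minimum of 0.5, the largest region, genes without mixed signs, a single owner per region and official symbols moved none of the count, share and median beyond these limits: 1.5 times for the count and the 95% interval for the others. With no value per library, this interval cannot measure the spread between libraries. It takes genes as separate although some share a region. Of the 68 genes named by rank, the value moved in 31 at any distance, 23 with the largest region, 15 within 1 kb and 5 with a single owner. None of those with a value changed direction under the 5 alternatives tried on them, while 24 had no region within 1 kb and 11 none when each region had a single owner. Of the 85 lists and families, the share higher moved in 31 within 1 kb, 36 at any distance, 3 with the minimum of 0.5 and 5 with a single owner. No paired analysis was possible because no test was made here and the table has no values per library. Leaving out a replicate was impossible for the same reason. Depth is unknown, so the smallest change it could show cannot be given.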
